A study of Mus musculus with 4 samples.

Results

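Potassium channel genes were compared between control mouse retina and retina labelled Isl1cKO at E13.5 (E, embryonic day). They were taken as every gene whose symbol begins with Kcn, continues in lower-case letters and ends in a number, which gave 92 of the 25239 genes in the tables. Each of the 4 libraries (2 labelled control and 2 labelled Isl1cKO, replicates 1 and 2 of each) held poly(A)-selected RNA from dissected retina, and the question of the series was how loss of Isl1, a LIM-homeodomain transcription factor, alters the retinal transcriptome. The Cre driver, the alleles, the strain, what the controls carry and the number of animals in a library are not given in the sources used here. Nothing says that replicates came from separate animals, so p-values measure only the spread between these samples, which may be technical.

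Potassium channels let potassium ions leave or enter a cell and so set its resting potential and the shape and spacing of its action potentials. Voltage-gated channels open on depolarization, inward rectifiers pass current best near rest, tandem-pore (K2P) channels carry leak current, and a further class opens with internal calcium or sodium. Accessory subunits have no pore of their own and alter the gating or trafficking of pore-forming partners. In the developing retina, ganglion cells are the first neurons to be born and to become excitable.

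The classes were assigned by symbol: 40 voltage-gated pore-forming genes, 15 inward rectifiers, 14 K2P genes, 11 calcium- or sodium-activated genes with their beta subunits, and 12 accessory and other genes. What the pore-forming classes have in common is the selectivity filter, the stretch of the pore that lets potassium pass and holds sodium back. In the longest coding sequence of each member in GENCODE M21 (mouse assembly GRCm38), a filter-type stretch was searched as the codons of serine or threonine, any residue, glycine, tyrosine, phenylalanine or leucine, and glycine. All 76 pore-forming genes of the 4 channel classes held at least 1 such stretch, and all 14 K2P genes held 2. The 4 beta subunits of the calcium-activated class held 0, as did 11 of the 12 accessory and other genes. The exception was Kcnu1, which encodes a pore-forming relative of the calcium-activated channels. Serine and leucine were not in the planned pattern, so these counts hold for the wider pattern only. A match is a description of the coding sequence only. The stretches of 3 genes described here are shown as examples from 3 of the classes and do not set the classes apart. Filter codons are in capitals, with 6 bases on each side in lower case.
Kcnh2 (voltage-gated; chr5:24325549-24325575, minus strand, exon 7): ctcaccAGCGTGGGCTTTGGCaatgtc
Kcnn1 (calcium-activated; chr8:70850651-70850677, minus strand, exon 4): ttcttgTCCATTGGCTATGGAgacatg
Kcnk1, first pore (K2P; chr8:125995802-126025025, plus strand, joined across exons 1 and 2): ctctccACCACAGGCTATGGCcacacg
Kcnk1, second pore (K2P; chr8:126025323-126025349, plus strand, exon 2): ctgagcACCATCGGCCTGGGGgactat
Kcnh2 also held another match, upstream in the same exon, and so did Kcna6. Both extra matches hold serine and leucine, which only the wider pattern accepts, and neither is evidence of a second pore.

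The libraries were described first. Aligned sequence, read from the ratio of coverage to FPKM, was 12.6 to 14.3 gigabases a library, and the number of reads is unknown. Isl1 itself was at 242 and 201 TPM in control retina, against 321 and 223 TPM in replicates 1 and 2 labelled Isl1cKO (log2 fold change 0.28, adjusted p = 0.684 in limma). TPM is scaled to transcript length and to a fixed library sum. The targeted gene was therefore not lower in the libraries labelled Isl1cKO, the tables hold no value per exon, and every direction below rests on the labels. The retinal progenitor markers, which define the labelled tissue, were present in each library (10 genes, 6558 to 7787 TPM in sum). Retinal ganglion cell markers summed to 3833 and 3289 TPM in the controls and to 1943 and 1337 TPM in the libraries labelled Isl1cKO. Of 13 tested, 12 had a log2 fold change below 0 (median -1.12), and 0 passed in limma (adjusted p-value under 0.05). The median was -0.46 for photoreceptor precursor markers (6 of 6 tested below 0) and -0.49 for amacrine cell markers (6 of 7). Over all tested genes 63.8% lay below 0. Without Isl1cKO replicate 2 these medians were -0.19 and -0.30, respectively, and that of ganglion cell markers was -0.95. The amacrine cell sum, however, was 619 and 598 TPM against 667 and 641.5 TPM. Horizontal cell markers had a median of 0.17 (1 of 4 below 0). Lens markers summed to 249 and 308 TPM against 13.3 and 9.09 TPM. All 13 lens markers were tested and lay below 0 (median -2.87). Of these, 10 passed in limma (adjusted p-value under 0.05), against 0.493% of all tested genes. Red blood cell markers summed to 2903 and 4168 TPM against 1418 and 204 TPM, and microglia markers to 55.8 and 57.9 TPM against 70.4 and 83.3 TPM.

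No potassium channel gene passed the test between the groups. Of the 92 genes, 38 reached 1 TPM in at least 2 libraries and were tested, and 0 of these passed in limma (adjusted p-value under 0.05), against 0.493% of all 13984 tested genes. The lowest adjusted p-value of a member was 0.139, for Kcnf1. Before adjustment, 15 of 38 were lower in the libraries labelled Isl1cKO at a p-value under 0.05, where the share of all tested genes was 8.92%. In the other direction there were 2 of 38, Kcnk1 among them, against 3.20% of all tested genes. Of the 15, 3 (Kcnb2, Kcne1 and Kcnmb2) were tested only because both control libraries reached 1 TPM, so a lower value was built into their selection. The median log2 fold change was -0.26 over the 38 members and -0.048 over all tested genes. The highest of a member was 0.33, for Kcnk1. Fold changes are differences in log2(TPM + 1), Isl1cKO minus control, and understate the change of low genes.

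**Figure D1:**
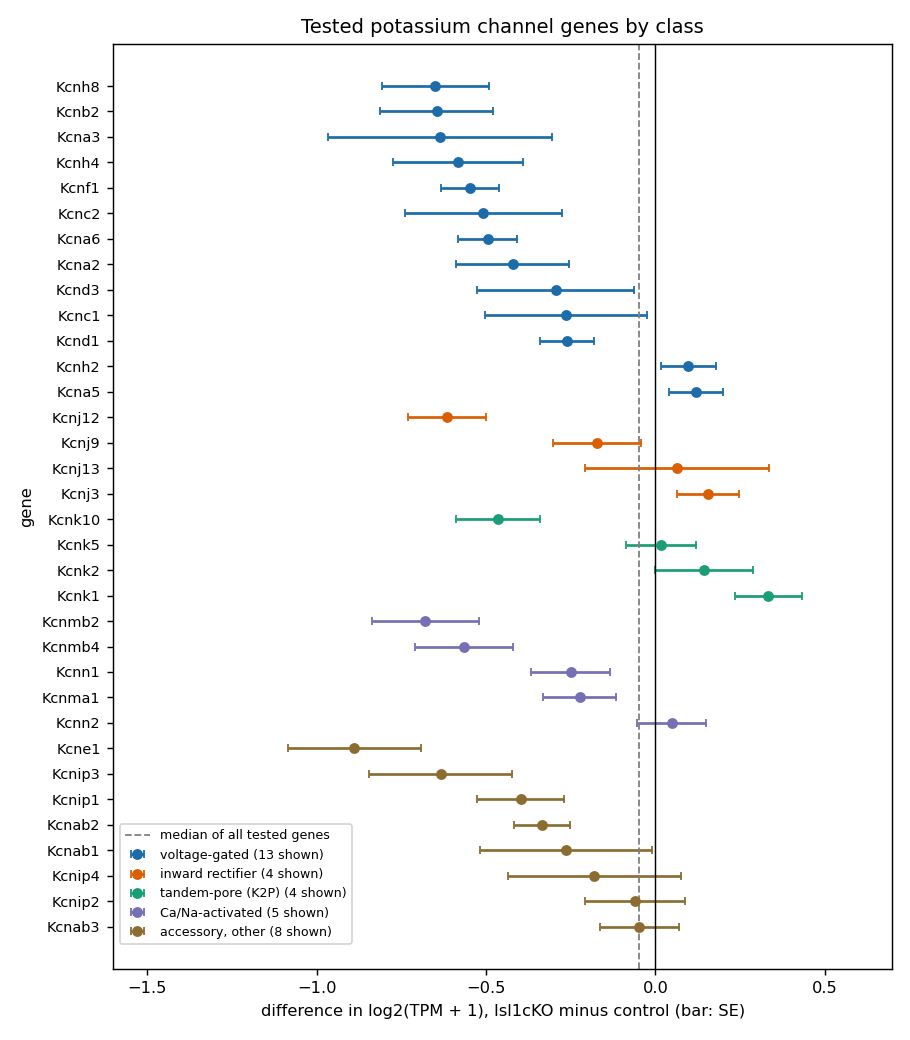
Difference in log2(TPM + 1) between the libraries labelled Isl1cKO and control (horizontal axis) for 34 of the tested potassium channel genes, coloured by class. Points are limma estimates and bars their standard errors, with 2 libraries a group. Most points lie left of 0, from Kcne1 at -0.89 to Kcnk1 at 0.33, and the dashed line marks the median of all tested genes at -0.048.

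Some of this difference rests on Isl1cKO replicate 2, which held the lowest value of 22 of the 38 members, as it did for 46.2% of all tested genes. Without it the median over the members was -0.19, and without Isl1cKO replicate 1 it was -0.35. The number of members past the adjusted threshold was 0 in each of these comparisons, as it was without either control. In these comparisons the lone library of a group is assumed to vary like the others. In bulk RNA, fewer cells of a type and less RNA per cell cannot be told apart. The part of lower marker levels, of ganglion cells or of other cell types, in the values that follow was not tested.

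The summed level of all 92 genes was 316 and 290 TPM in control retina, against 283 and 246 TPM in replicates 1 and 2 labelled Isl1cKO. The voltage-gated class made up the largest part of it, at 140 and 127 TPM against 119 and 92.1 TPM. K2P genes went the other way, at 71.6 and 64.9 TPM against 81.2 and 82.2 TPM, which rested on Kcnk1 alone. The other 13 K2P genes summed to 14.2 and 14.5 TPM in control retina and to 13 and 14.3 TPM in retina labelled Isl1cKO, with overlapping groups. The calcium- or sodium-activated class stood at 53.8 and 52.3 TPM against 42.8 and 36.2 TPM, and the accessory and other genes at 35.0 and 31.4 TPM against 27.4 and 23.0 TPM. Inward rectifiers were the least abundant class, with 14.9 and 13.9 TPM against 12.2 and 12.5 TPM. The groups did not overlap in any of the 5 sums. A two-sided exact permutation test gave p = 0.333 for each, which is the smallest value that 2 against 2 libraries allow.

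**Figure D2:**
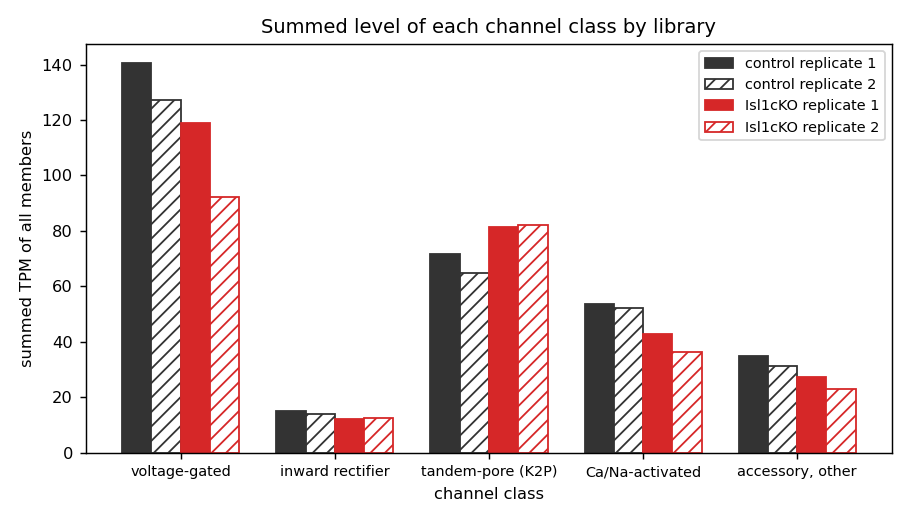
Summed TPM of all members of each channel class (bars start at 0) in each of the 4 libraries. The K2P class is higher in both libraries labelled Isl1cKO (81.2 and 82.2 TPM) than in both controls, through Kcnk1 alone, and the other classes are lower in both.

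Among the voltage-gated genes, which generate repolarizing current during an action potential, 17 of 40 were tested. Their median log2 fold change was -0.42, with 13 below 0 and 4 above. The count of genes below 0 compares with 63.8% of all tested genes. The class median was -0.20 without Isl1cKO replicate 2. Before adjustment 7 were lower and 1 was higher at a p-value under 0.05, against 8.92% and 3.20% of all tested genes. After it 0 passed. Kcnb2, among the 13 and the 7, was tested only through its control values, so its lower value was built into its selection.

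The Kcnh genes lay on both sides of 0, and the difference between them was not tested. Kcnh2 (chromosome 5, 24319589 to 24351604, minus strand), the ether-a-go-go related channel known for its part in cardiac repolarization, had the highest level of the voltage-gated class. It was at 32.3 and 34.03 TPM in control retina, against 36.2 and 34.9 TPM in retina labelled Isl1cKO, a log2 fold change of 0.10 with a 95% interval of -0.12 to 0.31. The groups lay close together without overlapping. Kcnh8 and Kcnh4, of the related Elk group, lay on the other side. Kcnh8 was at 4.94 TPM in both controls, against 3.37 and 2.28 TPM in retina labelled Isl1cKO, a log2 fold change of -0.65 (SE 0.16, adjusted p = 0.268 in limma). Kcnh4 was at 5.56 and 4.77 TPM against 3.87 and 2.46 TPM. In both genes every library labelled Isl1cKO was below every control.

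The delayed rectifier Kcnb2 and a silent partner of its type, which assembles with such channels but forms none alone, were low throughout. Kcnb2 was at 1.81 and 1.38 TPM in control retina, against 0.882 and 0.451 TPM in retina labelled Isl1cKO (log2 fold change -0.65, adjusted p = 0.285 in limma). The silent subunit Kcnf1 was at 1.87 and 1.82 TPM against 0.869 and 1.03 TPM, and its log2 fold change of -0.55 (SE 0.086) had the lowest adjusted p-value of any member, 0.139 in limma. Both genes thus lay below both control values in both libraries labelled Isl1cKO. Kcnb2, however, was tested only through its control values, so its lower value was built into its selection.

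Another silent subunit of this kind, Kcns2, did not reach 1 TPM and was picked out after its values had been seen. It was at 0.900 and 0.842 TPM in control retina, against 0.0269 and 0.0111 TPM in retina labelled Isl1cKO. With no filter on low values limma gave a log2 fold change of -0.88 (adjusted p = 0.0936). This was the lowest unadjusted p-value of any member below the filter, and at this level depth limits what can be said.

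Several Kcna genes encode channels that cluster along axons and at nerve terminals. Kcna3 was at 4.06 and 3.81 TPM in control retina, against 3.43 TPM (replicate 1) and 1.28 TPM (replicate 2) in retina labelled Isl1cKO. Its log2 fold change of -0.64 (SE 0.33) was -0.16 without Isl1cKO replicate 2, so that single library made most of the difference. Kcna6 was more even, at 2.82 and 2.55 TPM against 1.69 and 1.53 TPM, a log2 fold change of -0.50 (adjusted p = 0.166 in limma). Kcna5 stood slightly above the controls, at 4.52 and 4.66 TPM against 4.04 and 4.25 TPM. Kcna2 was at 2.39 and 1.78 TPM against 1.58 and 1.04 TPM.

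Kcnd genes carry the fast inactivating A-type current, and Kcnc genes the high-threshold current of fast-spiking neurons. Kcnd3, the second most abundant voltage-gated gene, was at 22.2 and 18.1 TPM in control retina, against 20.02 and 12.97 TPM in Isl1cKO replicates 1 and 2, respectively. The groups overlapped, the log2 fold change was -0.29 with a 95% interval of -0.91 to 0.32, and without Isl1cKO replicate 2 it was 0.00060. An antisense gene, Kcnd3os, lies within it at 0.908 to 2.21 TPM, and whether the authors' counting used strand is not stated. Kcnd1 was at 3.98 and 4.23 TPM against 3.31 and 3.20 TPM. Kcnc2 was at 6.76 and 5.61 TPM against 5.23 and 3.07 TPM, while Kcnc1 had overlapping groups.

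**Figure D3:**
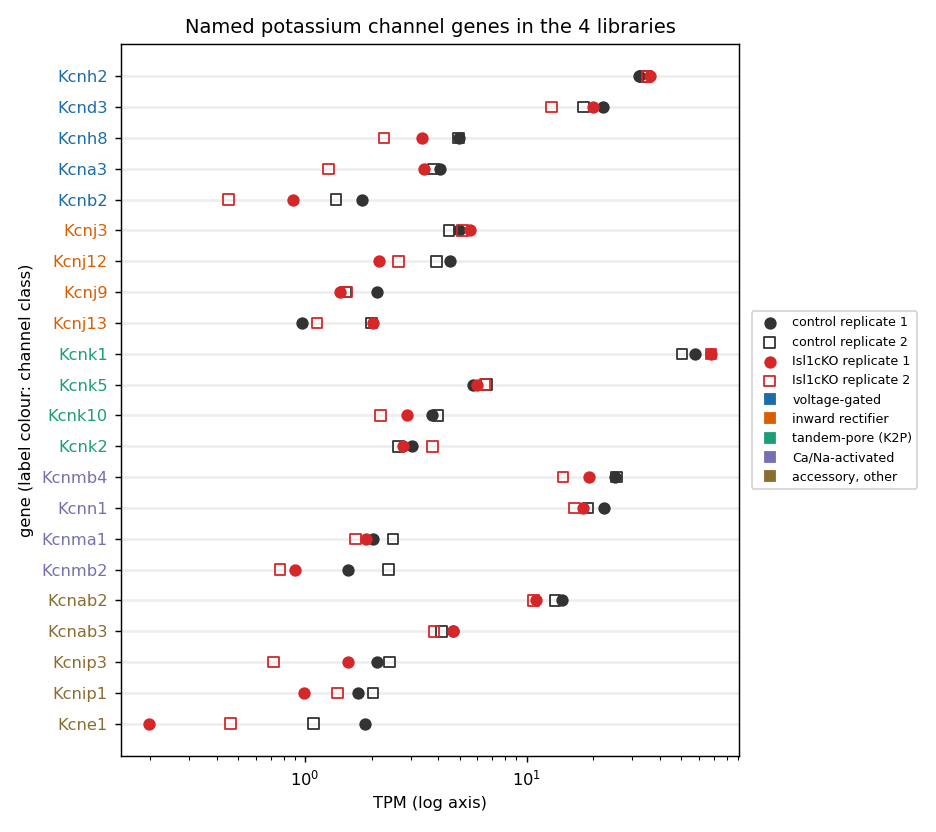
TPM (log axis) of named potassium channel genes in each of the 4 libraries, grouped by class. Kcnk1 is the most abundant, between 50.4 and 68.2 TPM, and its libraries labelled Isl1cKO lie right of both controls, while in Kcnmb4 and Kcnab2 they lie left of both.

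K2P channels set the leak conductance of resting cells, and 4 of 14 were tested. Kcnk1 (chromosome 8, 125995102 to 126030688, plus strand), a weakly inward-rectifying leak channel, was the most abundant of all members. It was at 57.4 and 50.4 TPM in control retina, against 68.2 and 67.9 TPM in retina labelled Isl1cKO. Both libraries labelled Isl1cKO were above both controls and close to each other. The means were 53.9 ± 4.99 and 68.1 ± 0.226 TPM (SD, n = 2 each), a log2 fold change of 0.33 in limma (SE 0.098, 95% interval 0.073 to 0.59, adjusted p = 0.325). Each library left out in turn gave 0.24 to 0.43.

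The mechanosensitive leak channels Kcnk10 and Kcnk2, close relatives, were on different sides of 0. Kcnk10 was at 3.74 and 3.98 TPM in control retina, against 2.89 and 2.19 TPM in retina labelled Isl1cKO, a log2 fold change of -0.46 (adjusted p = 0.294 in limma) without overlap. Kcnk2 was at 3.04 and 2.64 TPM against 2.78 and 3.76 TPM, with overlapping groups and a log2 fold change of 0.14, which was -0.023 without Isl1cKO replicate 2. The difference between the genes was not tested. Kcnk5, an acid-sensitive leak channel, was at 5.70 and 6.61 TPM against 5.95 and 6.50 TPM, and the 95% interval of its log2 fold change of 0.016 was -0.26 to 0.29. The class median was 0.080, and -0.030 without Isl1cKO replicate 2.

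Inward rectifiers were few, with 4 of 15 tested and a class median log2 fold change of -0.054. Kcnj12 (chromosome 11, 61022564 to 61073267, plus strand), a strong rectifier that holds cells near rest, was at 4.50 and 3.91 TPM in control retina, against 2.17 and 2.64 TPM in retina labelled Isl1cKO. Its mean was 57.2% of the control mean, without overlap, and limma gave a log2 fold change of -0.61 (SE 0.12, 95% interval -0.92 to -0.31, adjusted p = 0.178). Unlike most members it was lower in Isl1cKO replicate 1 than in replicate 2, and each library left out in turn gave -0.72 to -0.51.

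Kcnj3 and Kcnj9 encode subunits of the channels that G-protein-coupled receptors open. Kcnj3 was at 4.95 and 4.47 TPM in control retina, against 5.58 and 5.14 TPM in retina labelled Isl1cKO, which lay above both controls (log2 fold change 0.16, 95% interval -0.091 to 0.40). Kcnj9 was at 2.12 and 1.52 TPM against 1.44 and 1.54 TPM, with overlapping groups. Kcnj13, best known from the pigment epithelium, was at 0.971 and 1.99 TPM against 2.02 and 1.14 TPM. It differed more within the groups than between their means, 1.48 TPM in control retina and 1.58 TPM in retina labelled Isl1cKO. The pigment epithelium markers summed to 46.3 and 39.1 TPM in the controls and to 37.4 and 28.1 TPM in the libraries labelled Isl1cKO. Kcnj13 lies within Gigyf2 on the opposite strand, a gene at 58.1 to 66.0 TPM, and reads of the pair are told apart only if strand was used in counting. Kcnj8, a channel of mural cells, was at 0.135 and 0.143 TPM in control retina and was listed at 0 in both other libraries. At this level depth limits what can be said. Mural cell markers (3 of 6 tested) summed to 46.8 and 46.4 TPM in the controls and to 49.7 and 50.5 TPM in the libraries labelled Isl1cKO.

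In the calcium- or sodium-activated class, which links firing or calcium entry to repolarization, 5 of 11 genes were tested, with a median log2 fold change of -0.25. Of the BK channel, the large-conductance channel opened by calcium and voltage, the pore gene Kcnma1 was at 2.03 and 2.49 TPM in control retina, against 1.89 and 1.69 TPM in retina labelled Isl1cKO. Its neuronal beta subunit Kcnmb4 (chromosome 10, 116417868 to 116473523, minus strand) was far more abundant, at 25.1 and 25.5 TPM in control retina, against 19.2 and 14.6 TPM in Isl1cKO replicates 1 and 2, respectively. The groups did not overlap, the control SD was 0.287 TPM (n = 2), and the log2 fold change was -0.56 (SE 0.15, adjusted p = 0.285 in limma). It was -0.38 without Isl1cKO replicate 2.

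Kcnmb2, a beta subunit that inactivates the BK channel, was at 1.56 and 2.38 TPM against 0.902 and 0.771 TPM, a log2 fold change of -0.68 (adjusted p = 0.251 in limma). Kcnmb2 was tested only through its control values, so its lower value was built into its selection. Kcnma1 and Kcnmb4 were lower in both libraries labelled Isl1cKO than in both controls, as were 30.0% of all tested genes. Kcnn1, a small-conductance channel behind the afterhyperpolarization, was at 22.5 and 18.95 TPM against 17.97 and 16.5 TPM (log2 fold change -0.25, 95% interval -0.56 to 0.060). Kcnn2 was at 1.11 and 0.949 TPM against 1.23 and 0.973 TPM, with overlapping groups.

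All 8 tested genes of the accessory class lay below 0, with a median log2 fold change of -0.30, and 4 of them had an unadjusted p-value under 0.05. Over all tested genes 63.8% lay below 0 and 8.92% were lower at that p-value. Without Isl1cKO replicate 2, 5 of the 8 lay below 0. Kcnab2, a beta subunit that binds the cytoplasmic side of Kcna channels, was the most abundant, at 14.5 and 13.47 TPM in control retina, against 11.0 and 10.8 TPM in retina labelled Isl1cKO. Its log2 fold change of -0.34 (SE 0.083, adjusted p = 0.275 in limma) was steady, at -0.38 to -0.29 with each library left out in turn. Kcnab3 was at 4.66 and 4.13 TPM against 4.64 and 3.83 TPM, with overlapping groups. Kcne1, a single-span subunit that slows a voltage-gated channel, was at 1.87 and 1.09 TPM against 0.197 and 0.461 TPM. Its mean was 22.2% of the control mean, with a log2 fold change of -0.89 (SE 0.20, adjusted p = 0.227 in limma). Kcne1 was tested only through its control values, so its lower value was built into its selection. It is among the 8 genes below 0 and the 4 counted above.

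Kcnip genes encode calcium-binding partners of the Kcnd channels. Kcnip3 was at 2.12 and 2.40 TPM in control retina, against 1.56 and 0.719 TPM in Isl1cKO replicates 1 and 2, respectively, a log2 fold change of -0.63 (SE 0.21) that was -0.35 without replicate 2. Kcnip1 was at 1.74 and 2.03 TPM against 0.988 and 1.40 TPM. Kcnip2 and Kcnip4 had overlapping groups, with log2 fold changes of -0.060 and -0.18. Kcnip1 and Kcnip3 were thus lower in both libraries labelled Isl1cKO than in both controls, as Kcnd1 was and Kcnd3 was not.

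Over the 38 tested members, 20 were lower in both libraries labelled Isl1cKO than in both controls, against 30.0% of all tested genes, and 5 were higher in both, against 14.9%. Kcna5, Kcnh2, Kcnj3 and Kcnk1 were among the 5. A log2 fold change of -0.5 or less was found in 12 members and in 5.59% of all tested genes, and one of 0.5 or more in 0 members and in 1.25% of all tested genes. Without the 3 members that reached 1 TPM in the control group only, 9 of 35 were at -0.5 or less and 17 of 35 were lower in both libraries. The shares of all tested genes above still include 204 genes that reached 1 TPM in 1 group only. They are therefore not matched to these reduced counts. In the plot of all tested genes, 28 of the 38 members lie left of 0, where 63.8% of all tested genes lie.

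**Figure D4:**
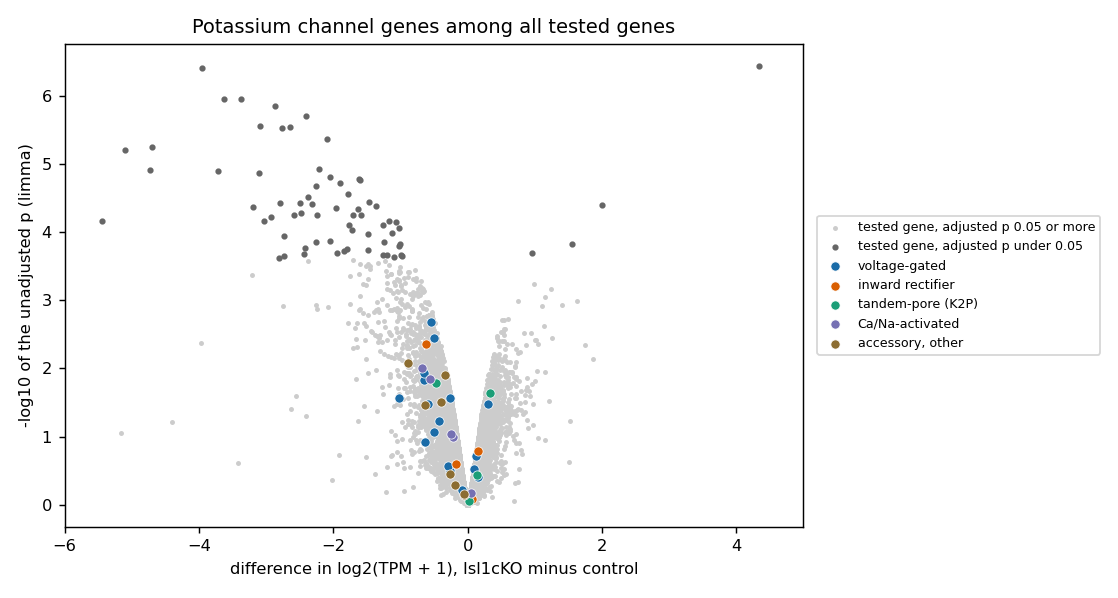
Difference in log2(TPM + 1), Isl1cKO minus control, against -log10 of the unadjusted p-value from limma for all 13984 tested genes, with potassium channel genes in colour by class. The 69 genes past the adjusted threshold are dark grey, and none of the 38 coloured points is among them.

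The remaining 54 members did not reach 1 TPM in at least 2 libraries. Of these, 6 were listed at 0 in every library (Kcna10, Kcng3, Kcnj1, Kcnj15, Kcnk15 and Kcnk16), 29 had a highest value under 0.5 TPM, and 19 reached 0.5 TPM in some library. Just inside the limit, Kcnip2 was at 0.938 and 1.06 TPM in control retina, against 1.17 and 0.689 TPM in retina labelled Isl1cKO. Just outside it, Kcnh6 was at 0.959, 0.951, 1.10 and 0.403 TPM in the same order, and the sodium-activated Kcnt2 was at 0.935 to 0.964 TPM. Below the limit, 48 members were above 0 in some library. Of these, 15 were lower in both libraries labelled Isl1cKO than in both controls, against 18.6% of all 5800 such genes, and 2 were higher in both, against 10.3%. Kcnc4 (0.836 and 0.605 against 0.279 and 0.218 TPM), Kcna4 (0.471 and 0.527 against 0.223 and 0.118 TPM) and Kcna1 (0.254 and 0.334 against 0.129 and 0.0176 TPM) were among the 15.

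Genes that work with these channels were read from a list of 37 partners, pumps and cotransporters, of which 29 were tested. None passed after adjustment in limma, 4 of the 29 had an unadjusted p-value under 0.05 (12.1% of all tested genes did), and the median log2 fold change was -0.088. Cntn2 (contactin 2), an adhesion molecule that gathers Kcna channels on axons, was at 84.5 and 74.1 TPM in control retina, against 29.4 and 21.7 TPM in retina labelled Isl1cKO. Limma gave a log2 fold change of -1.61 (SE 0.17, adjusted p = 0.0649). Among the fits that kept every library, the gene passed under 5 alternatives, with adjusted p-values from 0.00839 to 0.0459 in limma. It did not pass at a pseudocount of 0.1 (adjusted p = 0.120) or with no filter (adjusted p = 0.176). Each library left out in turn gave a log2 fold change of -1.82 to -1.40. Its binding partner Cntnap2 was at 59.9 and 56.8 TPM against 51.4 and 50.04 TPM. Nedd4l, a ubiquitin ligase that acts on ion channels, was at 10.3 and 9.04 TPM against 6.66 and 5.62 TPM (log2 fold change -0.58, adjusted p = 0.206 in limma).

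Among the other partners, Hcn4, a channel opened by hyperpolarization, was at 15.5 and 12.8 TPM in control retina, against 12.2 and 9.92 TPM in retina labelled Isl1cKO. Lrrc38, a gamma subunit of the BK channel, was at 0.462 and 1.23 TPM against 1.24 and 1.51 TPM (log2 fold change 0.39, SE 0.22). Dpp6, a partner of the Kcnd channels, was at 36.0 and 31.4 TPM against 33.6 and 31.8 TPM, with a 95% interval of -0.33 to 0.25 for its log2 fold change of -0.040. Rest, a repressor of neuronal genes including channels, had a log2 fold change of -0.0094. The chloride-extruding cotransporter Slc12a5 stood above the controls, at 13.4 and 12.4 TPM against 9.72 and 10.6 TPM (log2 fold change 0.32, adjusted p = 0.322 in limma).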

How the data were processed

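RNA from 4 retinal libraries was sequenced. The submitters' processing notes name Trimmomatic, FastQC, HISAT2, SAMtools, StringTie and DESeq2 and the build mm10, without versions or roles; the annotation is not given in the sources used here. Per the file headers, the authors deposited coverage (mean per base), FPKM and TPM per gene, 1 table a library. Deposited TPM summed to 1000000 in each library and is not a count, so no count model was fitted. Coverage served only to describe depth, and FPKM an alternative. No counting interval was possible.

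TPM was summed over repeated rows. Genes at 1 TPM in at least 2 libraries were tested with limma 3.58.1 (R 4.3.3) on log2(TPM + 1), genotype as the only term, with Benjamini-Hochberg adjustment over all 13984 tested genes and a threshold of 0.05. The model was tested on simulated data. Intervals are 95% intervals from limma.

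Members and lists were chosen with earlier results of these data known. Named were Isl1, members past the threshold, the 4 largest differences and 2 highest levels in each class, and the 4 largest differences among partners; further genes complete a family or were picked once values were known. The filter search accepted serine and leucine, which the planned pattern did not. Printed sequences are from GENCODE M21, GRCm38, the assembly of mm10. Alternatives were another pseudocount, filters, FPKM, median-ratio scaling, a mean-variance trend, the replicate block and leaving out each library. Some members and sequences are not reported here, though they are counted.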

Additional observations from a re-analysis of the deposited data

How the results depend on the processing

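Each library left out in turn left 10 to 37 genes past the threshold over all genes in place of 69. The count was 44 at a pseudocount of 0.1, 15 with no filter on low values, 127 with FPKM, 110 with a mean-variance trend and 265 with the replicate block. The number of potassium channel genes past the threshold stayed at 0 under each alternative except the replicate block, where it was 1. Before adjustment 17 members had a p-value under 0.05, and 20 with the block, while over all 13984 tested genes the count went from 1694 to 2037. The deviations of same-numbered libraries from their group means correlated at 0.126, and because there are 2 pairs and the labels name no common litter, the libraries were taken to share only a number. Among the fits that kept every library, the number of partner genes past the threshold was 1 in some alternatives, always Cntn2. These were a filter of 5 TPM, FPKM, median-ratio scaling, the mean-variance trend and the replicate block. The number was 0 at a pseudocount of 0.1 and with no filter. The cause of these changes was not tested.

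Class medians moved under several alternatives, of which the filters change the genes tested and FPKM changes the unit as well. The voltage-gated median of -0.42 was -0.20 with no filter and -0.19 with FPKM. The inward rectifier median of -0.054 was -0.13 with no filter, 0.16 at 5 TPM (1 gene) and -0.13 with FPKM. The K2P median of 0.080 was 0.18 at 5 TPM. The calcium- or sodium-activated median of -0.25 was -0.061 with no filter, -0.41 at 5 TPM and -0.33 with FPKM. The accessory median of -0.30 was -0.13 with FPKM. Each library left out in turn gave -0.55 to -0.20, -0.16 to 0.0025, -0.030 to 0.19, -0.37 to -0.19 and -0.35 to -0.20 in that order, and 0.014 to 0.54 for Isl1. Signs changed when a library was left out for Kcnd3 (-0.59 to 0.00060), Kcnj13 (-0.24 to 0.36), Kcnk2 (-0.023 to 0.31), Kcnk5 (-0.075 to 0.11) and Kcnab3 (-0.16 to 0.066). The other 22 of 27 named genes kept their sign under every alternative run for them. Read depth is not known, and genes listed at 0 carry no limit.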

Other observations

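Several potassium channel genes are neighbours in the genome, by the positions in the tables (mm10). On chromosome 6, Kcna5, Kcna1 and Kcna6 lie between 126532551 and 126740674. Kcna5 was higher in both libraries labelled Isl1cKO than in both controls (4.52 and 4.66 against 4.04 and 4.25 TPM), while Kcna6 was lower in both (1.69 and 1.53 against 2.82 and 2.55 TPM). Kcna1, between them, was under 0.5 TPM in each library. The difference between neighbours was not tested. On chromosome 3, Kcna3 and Kcna2, 63.4 kb apart, had log2 fold changes of -0.64 and -0.42, and their neighbour Kcna10 was listed at 0 in each library. On chromosome 16, Kcne1 and Kcne2 lie 47.9 kb apart. Kcne2 was at 0.0261 and 0.847 TPM in control retina, against 0.277 and 0 TPM in retina labelled Isl1cKO, with overlapping groups. Those of Kcne1 did not overlap, but Kcne1 was tested only through its control values, so this was built into its selection. Over all members there were 10 neighbouring pairs within 200 kb, 1 of which overlapped.

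Antisense genes lay over several members. Of the 38 tested members, 10 overlapped another gene of the tables, and for 5 of these the other gene reached 1 TPM. Kcnmb4os2, on the strand opposite Kcnmb4, was at 4.87 and 4.03 TPM in control retina, against 3.19 and 4.01 TPM in retina labelled Isl1cKO. The imprinted antisense RNA Kcnq1ot1 was at 3.44 and 3.83 TPM against 3.44 and 3.26 TPM, while Kcnq1 itself did not exceed 0.0902 TPM.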
